A study of Mus musculus with 9 samples.

Results

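The mucin genes Muc15, Muc1, Muc4, Muc19, Muc2, Muc5ac and Muc5b were followed in the olfactory mucosa of the mouse nose, where odour-sensing neurons lie under a layer of glandular mucus, during systemic dexamethasone treatment. They were taken by gene symbol, and each was read by its brightest probe over the 9 arrays. They are 7 of the 19084 genes named on the array and are covered by 10 of its 26423 probes. The genes were picked from their own intensities in the groups compared here, so their levels and differences are a description, and nothing is concluded from how many of them moved.

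RNA was measured on 9 single-colour arrays, 3 for each of 3 groups of male C57BL/6 mice aged 6 to 8 weeks. Controls were injected with saline for 2 weeks. D1 mice were given dexamethasone, a synthetic glucocorticoid, on 1 day, and WK2 mice daily for 2 weeks by the intraperitoneal route; the labels state the dose of 1 mg/kg beside the 2-week treatment. Each group held 9 of 27 mice, and its 3 array samples were selected on Omp, the olfactory marker protein of mature olfactory neurons, so Omp itself is no independent finding. The labels do not state whether a group's 3 samples were taken from different mice, and p-values therefore measure only the spread between these samples. D1 and WK2 are both set against the same 3 control arrays, and D1 also differs from its control in how long injections lasted.

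The tissue label was checked against marker genes. Omp intensity was 337461 ± 64145 (SD, n = 3) in control, 408864 ± 79361 (SD, n = 3) in D1 and 506735 ± 30934 (SD, n = 3) in WK2. Cyp2g1, a cytochrome P450 of olfactory sustentacular cells, lay between 373325 and 677700 on every array, and Bpifa1, a secreted protein of nasal glands and respiratory epithelium, between 429864 and 617300. Bone and cartilage genes were also present, and their summed intensity over 7 genes ranged from 107920 to 116479 in control, from 55534 to 59170 in D1 and from 84362 to 193005 in WK2. A single gene, Ibsp, a bone matrix sialoprotein, made up most of that sum; without it the other 6 summed to 13639 to 30680 in control, 11430 to 12737 in D1 and 7291 to 10069 in WK2, so that WK2 was the lowest group. In tissue RNA such as this, fewer cells of a type and less RNA per cell cannot be told apart.

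Mucins are proteins with long serine- and threonine-rich stretches that carry dense O-linked sugar chains. The gel-forming mucins are secreted by goblet cells and submucosal glands, link into polymers through cysteine-rich ends and give mucus its viscosity, while the transmembrane mucins sit on the cell surface as a barrier and can signal through short cytoplasmic tails. In the nose, mucus traps particles and microbes, and over the olfactory epithelium it is the layer that odorants cross to reach the neurons' cilia, supplied in large part by Bowman's glands.

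Promoter sequence is shown for Muc2 and Muc1, to give the start-site context of a secreted and a membrane mucin. The RefSeq promoter table, which runs from 250 bases before a gene's start to 50 bases after it, held 3 of the 7 genes, namely Muc1, Muc2 and Muc4. On GRCm38.p6 the Muc2 window is chr7:141690090-141690389 and the Muc1 window chr3:89228806-89229105, both on the plus strand and written 5′ to 3′, with capitals marking matches to TATAA or TATAAA on that strand.
Muc2: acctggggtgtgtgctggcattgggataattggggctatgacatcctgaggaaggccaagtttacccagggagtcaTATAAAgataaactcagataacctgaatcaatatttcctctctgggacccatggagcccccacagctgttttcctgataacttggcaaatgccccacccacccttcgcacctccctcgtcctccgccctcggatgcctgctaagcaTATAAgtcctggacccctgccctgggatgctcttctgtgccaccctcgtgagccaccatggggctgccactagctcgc
Muc1: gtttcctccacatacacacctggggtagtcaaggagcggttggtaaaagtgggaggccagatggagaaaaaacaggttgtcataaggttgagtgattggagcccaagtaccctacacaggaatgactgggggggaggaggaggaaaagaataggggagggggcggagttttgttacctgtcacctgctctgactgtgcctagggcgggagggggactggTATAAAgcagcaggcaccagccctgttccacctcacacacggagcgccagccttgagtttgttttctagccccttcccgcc

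In Muc2 the TATAA match nearest the start began at position -28 and a TATAAA match at -174, counted from the annotated start. In Muc1 the TATAAA match began at -31, and in Muc4 at -36. TATAAA was found in 8.32% of the 32851 promoters of the table and TATAA, which every TATAAA contains, in 17.5%. AGAACA or its reverse complement TGTTCT, the half-site of the glucocorticoid receptor, occurred in 19% of all promoters, and CACGTG, the E-box bound by clock and Myc factors, in 7.15%; neither was found in the 3 mucin windows. These are letter matches in a short window and say nothing about binding.

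Among the transmembrane mucins, Muc15 was the gene whose WK2 arrays stood highest above control. Muc15 encodes a heavily glycosylated membrane mucin, first described in the fat globule membrane of cow milk. Its intensity was 280, 250 and 168 on control arrays 1, 2 and 3, then 152, 167 and 167 in D1, and 776, 671 and 788 in WK2. Every WK2 array therefore lay above every control and D1 array, and every D1 array lay just below the lowest control array. The group means were 232 ± 58.1 in control, 162 ± 8.52 in D1 and 745 ± 64.8 in WK2 (SD, n = 3 each). On the scale of log2(intensity + 50), which understates differences of dim genes, WK2 exceeded control by 1.51 ± 0.17 (SE; 95% confidence interval 1.13 to 1.90), a 2.85-fold difference. WK2 exceeded D1 by 1.90 ± 0.17 (SE; 1.52 to 2.29), or 3.74-fold. D1 against control was -0.39 ± 0.17 (SE; -0.78 to -0.00), and the lowest control array and the highest D1 array were nearly level.

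Muc15 was read by a dim probe. The lower quartile of all intensities was 201 to 303 across arrays, so its control and D1 signals fell near or below that quartile while its WK2 signals lay well above it. With a pseudocount of 500 in place of 50, the WK2 difference from control was 0.77. In the RefSeq gene order Muc15 lies within the span of Ano3, a gene of the anoctamin channel and scramblase family, on chromosome 2. The brightest Ano3 probe read 134, 65.1 and 120 in control, 127, 133 and 134 in D1, and 156, 162 and 200 in WK2. Its WK2 arrays lay above the others, with a difference from control of 0.54 ± 0.19 (SE) on the log2 scale that did not pass (limma, Benjamini-Hochberg adjusted p = 0.105). Every Ano3 value lay below the lower quartile of its array, which was itself lowest on control 2 and highest on the WK2 arrays. All WK2 arrays lay above all control arrays for 23.8% of all features, so nothing is read from the order of the Ano3 arrays.

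Muc1, a transmembrane mucin of the apical surface of glandular epithelia, showed no separation of the groups. Its intensity was 6835, 9742 and 7275 in control, 8295, 12082 and 7169 in D1, and 10347, 9192 and 7394 in WK2. The groups overlapped in each comparison, with the highest value in D1 2 and the lowest in control 1. The log2 difference from control was 0.19 ± 0.23 (SE; 95% interval -0.32 to 0.70) in D1 and 0.18 ± 0.23 (SE; -0.33 to 0.69) in WK2, and WK2 against D1 was -0.01 ± 0.23 (SE; -0.52 to 0.50). Intervals of this width do not show that the levels were equal.

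Muc4, a large membrane mucin of airway epithelium that binds the receptor ErbB2, likewise overlapped between groups. It read 2485, 2396 and 2939 in control, 2016, 2837 and 2328 in D1, and 2965, 2740 and 1381 in WK2. One WK2 array, WK2 3, was the lowest of the 9, and WK2 1 was the highest. The WK2 difference from control was -0.21 ± 0.27 (SE; -0.81 to 0.39) on the log2 scale and became 0.13 without WK2 3. The difference in D1 was -0.13 ± 0.27 (SE).

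**Figure D1:**
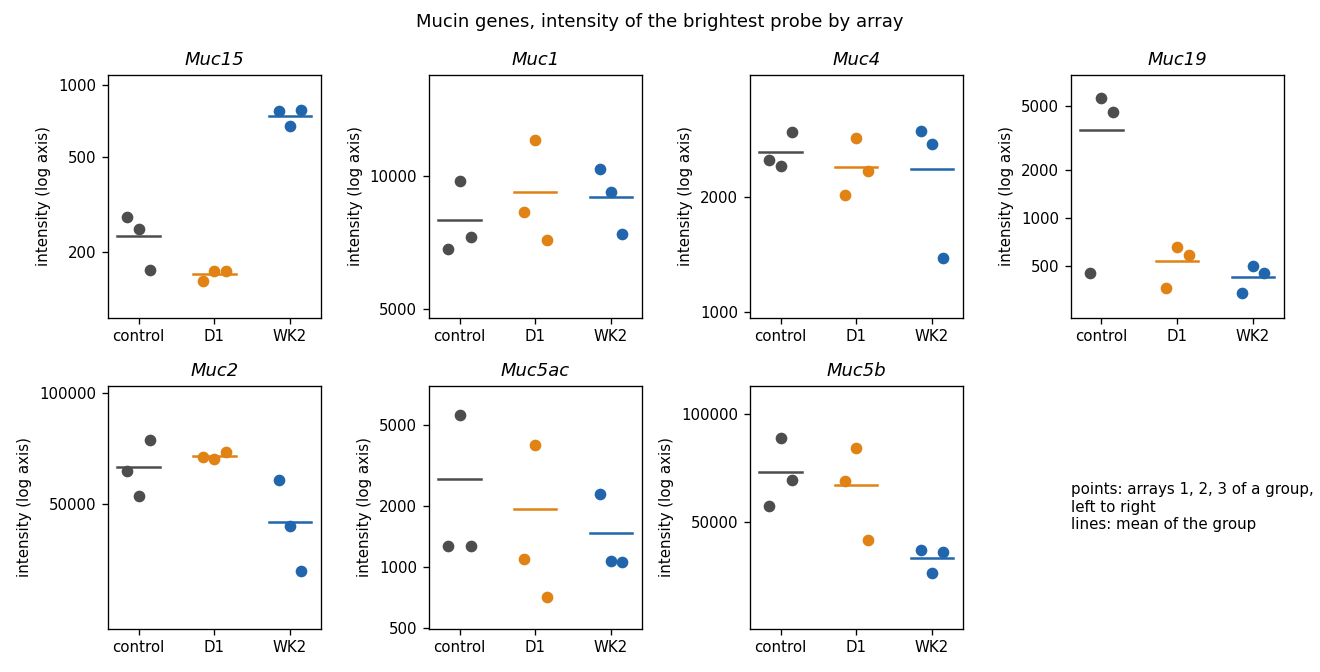
Intensity of the brightest probe of each of the 7 mucin genes on each of the 9 arrays, on log axes with a separate range for each gene; points are arrays 1 to 3 of a group from left to right and lines are group means (n = 3). Muc15 is high on all 3 WK2 arrays, at 671 to 788, Muc5b is low on them, at 36163 to 41947, and Muc19 is high on control 2 and control 3 only.

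Among the gel-forming mucins, Muc5b and Muc2 had lower intensities in WK2 than in control and D1, by less than 2-fold on their brightest probes, and neither passed an adjusted p of 0.05 with limma. Muc5b is a principal gel-forming mucin of airway glands and is required for mucociliary clearance in mice. Its brightest probe read 55354, 85758 and 65368 in control, 64986, 80275 and 44644 in D1, and 41947, 36163 and 41386 in WK2. All WK2 arrays lay below all control and D1 arrays, while control and D1 overlapped. Group means were 68827 ± 15494 in control, 63302 ± 17875 in D1 and 39832 ± 3190 in WK2 (SD, n = 3 each). The log2 difference of WK2 from control was -0.77 ± 0.23 (SE; -1.29 to -0.25), which is 1.70-fold lower (limma adjusted p = 0.0809), and that of WK2 from D1 was -0.63 ± 0.23 (SE; -1.15 to -0.11), which is 1.55-fold lower. D1 against control was -0.14 ± 0.23 (SE; -0.66 to 0.38).

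The other Muc5b probe gave the same order of groups. It read 28321, 48849 and 27541 in control, 26324, 39549 and 25246 in D1, and 19051, 13327 and 9891 in WK2. Its WK2 arrays again lay below the other 6, and its log2 differences were -0.18 for D1 against control, -1.30 for WK2 against control and -1.13 for WK2 against D1. Both probes come from the same RNA and are no replicates of each other. Levels of different probes are not compared, since a probe's brightness also depends on its own sequence.

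Muc2, the main gel-forming mucin of the intestine, read 61587, 52624 and 74577 in control, 67096, 66314 and 69206 in D1, and 57969, 43578 and 33039 in WK2. Every WK2 array lay below every D1 array, whereas WK2 1 lay above the lowest control array, control 2. The means were 62929 ± 11038 in control, 67539 ± 1496 in D1 and 44862 ± 12515 in WK2 (SD, n = 3 each). WK2 differed from control by -0.51 ± 0.21 (SE; -0.98 to -0.04), 1.42-fold lower (limma adjusted p = 0.145), and from D1 by -0.63 ± 0.21 (SE; -1.10 to -0.15), 1.54-fold lower. D1 against control was 0.12 ± 0.21 (SE; -0.36 to 0.59) and turned to -0.01 without control 2.

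Muc5ac, the gel-forming mucin that goblet cells of the airway surface make in inflammation, varied more within groups than between them. It read 1266, 5622 and 1271 in control, 1099, 4014 and 709 in D1, and 2303, 1073 and 1054 in WK2. A single array stood high in control and in D1, namely control 2 and D1 2, and all groups overlapped. The log2 differences were -0.49 ± 0.69 (SE; -2.03 to 1.05) for D1 and -0.59 ± 0.69 (SE; -2.12 to 0.95) for WK2, both against control. Without control 2 they turned to 0.21 and 0.12, so no direction can be given for Muc5ac.

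Most neutrophil markers were also high on the arrays where Muc5ac was high. The summed intensity of 7 measured neutrophil markers of the 8 listed was 52396, 275890 and 107993 in control, 177779, 386103 and 104330 in D1, and 271420, 165984 and 200335 in WK2. It peaked on control 2 and D1 2 within their groups and on WK2 1 within its own. S100a9, a calcium-binding protein of neutrophils, led the sum, and without it the other 6 peaked on the same arrays, at 131903, 163522 and 109133. S100a8, its usual partner, peaked on the same array only in D1. It read 597, 465 and 643 in control, 508, 612 and 442 in D1, and 383, 335 and 508 in WK2. These S100a8 values were dim, below the array medians of 1202 to 1447. None of the 7 was at 0, and their part in the Muc5ac values was not tested.

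Muc19, a gel-forming mucin of salivary and submucosal mucous cells, gave the widest spread. Its brightest probe read 451, 5630 and 4637 in control, 363, 660 and 581 in D1, and 338, 497 and 450 in WK2. Control 2 and control 3 lay above all treated arrays, but control 1 lay among them, so the groups overlapped. The log2 difference from control was -2.06 ± 0.74 (SE; -3.72 to -0.40) in D1, 4.16-fold lower, and -2.32 ± 0.74 (SE; -3.98 to -0.67) in WK2, 5.01-fold lower. WK2 against D1 was -0.27 ± 0.74 (SE; -1.93 to 1.39). Single control arrays set the size of these differences. They were -1.43 in D1 and -1.69 in WK2 without control 2, and -1.57 and -1.83 without control 3, none of which passed. Without control 1 they were -3.18 in D1 and -3.45 in WK2, each past the threshold (limma, Benjamini-Hochberg adjusted p = 0.0177 and 0.00888). Control 2 and control 3 also raised this probe's mean of 9 arrays, by which it was taken as the brightest. The differences and p-values therefore partly restate that choice of probe, and no fall of Muc19 is concluded from them.

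The other Muc19 probes did not show that pattern. The second probe read 448, 132 and 415 in control, 400, 470 and 473 in D1, and 578, 586 and 577 in WK2, and the third read 425, 270 and 395, then 315, 449 and 362, then 468, 475 and 480. On both, control 2 was the lowest of the 9 arrays and the WK2 arrays were the highest 3. The WK2 difference from control was 0.86 for the second probe and 0.36 for the third, against -2.32 for the brightest. The D1 difference from control was 0.51 for the second and 0.05 for the third, against -2.06 for the brightest. With the mean of the 3 probes the differences were -0.50 in D1 and -0.37 in WK2. The sign of the difference thus depended on the probe in both comparisons with control. The other probes were dim, with means of 453 and 404 over the 9 arrays. The lower quartile of all intensities was likewise lowest on control 2, at 201, and highest on the WK2 arrays, at 284 to 303. The brightest probe was itself dim outside control 2 and control 3, at 338 to 660, near the values of the other probes. Whether these dim signals read Muc19 or background was not tested, so no direction for Muc19 is read from the 3 probes.

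**Figure D2:**
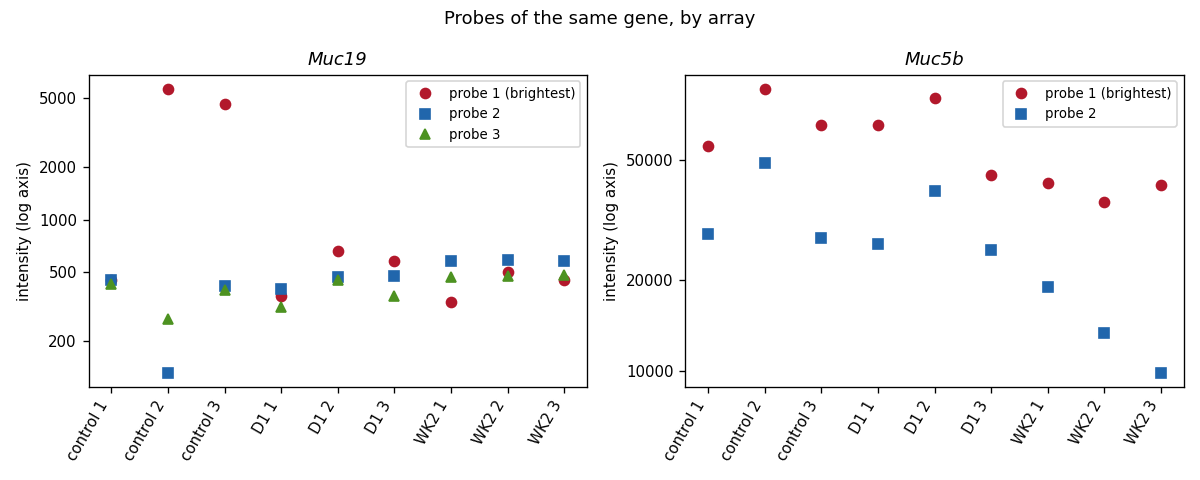
Intensity of every probe of Muc19 (3 probes) and Muc5b (2 probes) on each of the 9 arrays, on log axes. The brightest Muc19 probe is high on control 2 and control 3 only while the other probes are lowest on control 2, and both Muc5b probes are lowest on the 3 WK2 arrays.

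The counts of mucin genes are given beside those of all 23631 features tested. In D1 against control, 1 of the 7 genes, Muc15, had groups that did not overlap, as did 10.1% of all features (4.92% higher and 5.19% lower), and 0 of 7 passed an adjusted p of 0.05 with limma, as did 0% of all features (473 features had an unadjusted p under 0.05, 2 mucin genes among them). In WK2 against control, 2 of 7 did not overlap, Muc15 higher and Muc5b lower, beside 37.6% of all features (23.8% higher and 13.8% lower). There 1 of 7, Muc15, passed with limma (Benjamini-Hochberg adjusted p = 0.0178), beside 1.61% of all features, of which 102 (0.432%) were higher and 278 (1.18%) lower. With median centring, those calls were 221 higher and 1293 lower.

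In WK2 against D1, 3 of 7 did not overlap, Muc15 higher and Muc2 and Muc5b lower, beside 31.4% of all features (18.7% higher and 12.6% lower). Muc15 was again the 1 gene that passed with limma (Benjamini-Hochberg adjusted p = 0.00813), beside 0.0931% of all features, of which 7 (0.0296%) were higher and 15 (0.0635%) lower. Those calls were 15 higher and 61 lower with quantile normalization. The genes were chosen from these values, and the D1 and WK2 comparisons share arrays, so nothing is read from these counts. For 3 arrays against 3, an exact permutation test of a single gene cannot give a p under 0.1.

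The Muc15 calls did not hold in every fit with 1 array left out. For WK2 against control, the limma adjusted p was 0.0929 without control 3, 0.0513 without WK2 2 and 0.0623 without WK2 3. For WK2 against D1 it was 0.0741, 0.0505 and 0.0765 without D1 1, D1 2 and D1 3. In the same fits the calls over all features also fell. They went from 380 to 2, 1 and 4 in WK2 against control, and from 22 to 1, 2 and 1 in WK2 against D1. The log2 difference itself stayed between 1.33 and 1.63 against control and between 1.86 and 1.97 against D1 when any 1 array was left out. The median of the 7 differences was -0.14 for D1 and -0.51 for WK2 against control and -0.09 for WK2 against D1, beside 0.03, 0.14 and 0.10 over all features.

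**Figure D3:**
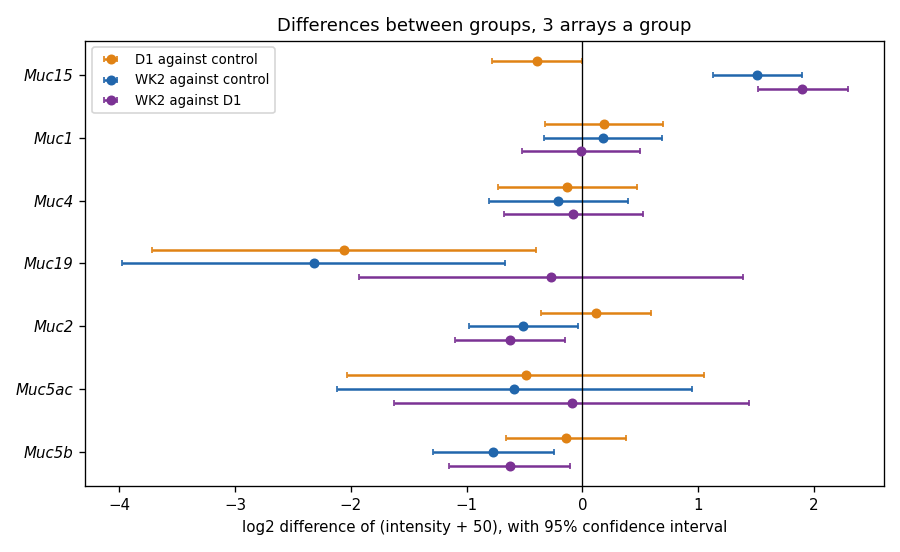
Log2 differences of the 7 mucin genes on the log2(intensity + 50) scale for the 3 comparisons, with 95% confidence intervals from 1 limma model over 9 arrays (n = 3 per group). For Muc15 both WK2 differences lie above 1, for Muc2 and Muc5b both lie below 0, and the intervals of Muc19 and Muc5ac are the widest.

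The gene order of the secreted mucins offers a further comparison. Muc6, Muc2, Muc5ac and Muc5b adjoin each other on chromosome 7 in the RefSeq table. Muc6, a gel-forming mucin of gastric glands, differed from control by 0.42 ± 0.26 (SE) in WK2 on the log2 scale, with a 95% interval of -0.16 to 1.01. That interval includes 0, and no direction can be given for Muc6 or, as above, for Muc5ac, which lies between Muc2 and Muc5b. The 3 genes on each side of this cluster are not mucins. All WK2 arrays lay below all control arrays for Tspan4, Ap2a2 and Tollip and above them for Chid1, while Brsk2 and Mob2 overlapped. Of all features, 13.8% lay lower and 23.8% higher without overlap, so nothing is read from the order of these arrays. Of these neighbours only Tspan4 passed, at -1.13 in WK2 against control (limma adjusted p = 0.0349), and leaving out any 1 array other than WK2 1 ended that call. It also passed in WK2 against D1, at -1.16 (limma adjusted p = 0.0405), and leaving out any 1 array ended that call. Muc4 overlaps Muc20, another membrane mucin, on chromosome 16, and Muc20 differed from control by 0.02 ± 0.20 (SE) in WK2. Trim46, next to Muc1 on chromosome 3, passed in WK2 against control at -1.08 on its brightest probe (limma adjusted p = 0.0443). Its other probe gave 0.01, and leaving out any 1 array other than WK2 1 ended the Trim46 call.

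For each mucin the 3 genes most alike in pattern were taken by the smallest root mean square difference of log2 values, each gene centred on its own mean of 9 arrays. For Muc15 they were Arntl, at 0.25, and Btg4 and Eda2r, each at 0.33. Arntl encodes the circadian transcription factor BMAL1, and it read 3273, 3097 and 2775 in control, 2165, 2134 and 2062 in D1, and 7276, 9584 and 6116 in WK2. Its arrays were ordered by group as those of Muc15 were, lowest in D1 and highest in WK2. Eda2r, a receptor of the tumour necrosis factor receptor family, read 5773 to 7695 on the control and D1 arrays and 14441 to 17391 in WK2.

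For Muc19 the nearest genes were less close. Acan, the cartilage proteoglycan aggrecan, was at 0.87, Tcap, a titin-binding protein of striated muscle, at 0.91 and Col10a1, a collagen of hypertrophic cartilage, at 0.93. Acan read 527, 5661 and 991 in control, 537, 578 and 426 in D1, and 858, 565 and 540 in WK2. It shared the high control 2 with Muc19 but not the high control 3. Col2a1, the main cartilage collagen, was also highest on control 2, at 12051, and lay between 560 and 2802 on the other arrays. The part of cartilage or muscle RNA in the Muc19 values was not tested.

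The genes nearest to Muc5ac were Sla, an adaptor protein of lymphocyte signalling, at 0.44, and Cyba and Ncf4, components of the phagocyte NADPH oxidase, at 0.46 and 0.47. Sla read 1484, 3380 and 1550 in control, 1740, 4522 and 1238 in D1, and 1901, 1550 and 1526 in WK2. It was high on control 2 and D1 2, as Muc5ac was. The other mucins varied less, and their nearest genes lay closer: Olr1 at 0.07, Vangl1 and Prss22 at 0.09 for Muc1, Zfp532 at 0.05, Pik3r2 and Arhgef17 at 0.08 for Muc2, Foxa1 at 0.13, Sf3b4 at 0.14 and Rnf114 at 0.15 for Muc4, and Itga4 at 0.12, Fhod1 and Incenp at 0.14 for Muc5b. All points share the same 9 arrays, and a small distance is easier to reach for a gene that varies little.

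**Figure D4:**
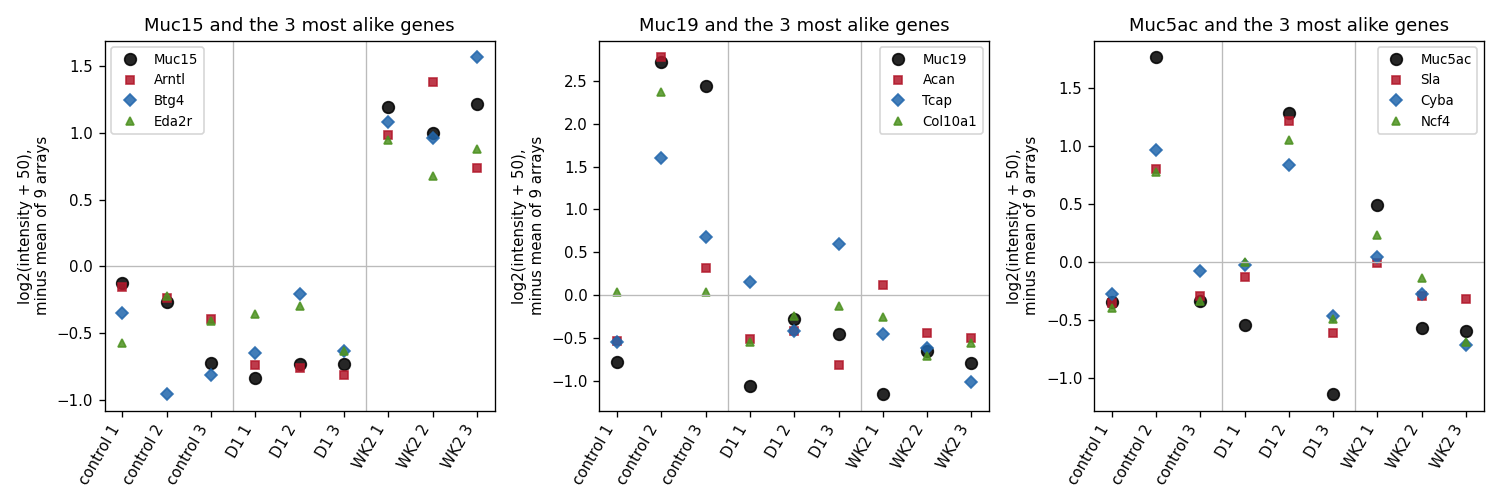
Log2(intensity + 50) of Muc15, Muc19 and Muc5ac and of the 3 genes most alike to each, centred on each gene's own mean of 9 arrays and drawn array by array. Muc15 and its 3 genes are high on the WK2 arrays, Muc19 and its genes peak on control 2, and Muc5ac and its genes are high on control 2 and D1 2.

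The gene lists and markers below are to be set beside all 23631 features. In WK2 against control, 1.61% of these passed with limma, 7028 had an unadjusted p under 0.05 and 14816 lay above control. Of 15 other mucin and mucin-like genes, 12 were measured and 0 passed with limma in any comparison (2 had an unadjusted p under 0.05 in WK2 against control). In WK2 against control 10 of them were above and 2 below control, with a median of 0.31 beside 0.14 over all features; with quantile normalization the median was 0.13. Mucl3, a mucin-like membrane protein, had the largest positive difference, 0.77 ± 0.29 (SE; limma adjusted p = 0.121). Ovgp1, the oviductal mucin-like glycoprotein, had a difference of -0.72 ± 0.23 (SE; limma adjusted p = 0.0866).

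The enzymes that build mucin sugar chains were described in the same way. Of 19 polypeptide N-acetylgalactosaminyltransferase genes, whose products attach the first sugar, 0 rose and 1 fell in WK2 against control, 7 being above and 12 below control with a median of -0.13. The gene that fell was Galnt17, which read 13174, 13279 and 16072 in control, 12963, 9275 and 10779 in D1, and 7093, 6680 and 4011 in WK2. All WK2 arrays lay below the other 6, and the difference from control was -1.29 ± 0.23 (SE; limma adjusted p = 0.0419). Leaving out any 1 array other than WK2 1 ended that call, with adjusted p from 0.0645 to 0.148. Of 16 genes that extend or cap the chains, 0 passed with limma (5 at an unadjusted p under 0.05), with a median of 0.09. Gcnt1, which makes core branches, differed by 0.69 ± 0.37 (SE) on its brightest probe and -0.00 on another, and C1galt1, which makes the core disaccharide, by 0.68 ± 0.36 (SE).

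Genes of mucous cell differentiation and secretion were counted next. Over all 23631 features, 1.61% passed with limma in WK2 against control, 7028 had an unadjusted p under 0.05 and 14816 lay above control. Nothing is read from the list counts beside these. Of 21 measured genes of 22 in the mucous secretory programme, 0 passed with limma (5 at an unadjusted p under 0.05); 14 were above and 7 below control in WK2 with a median of 0.22, which was -0.01 with quantile normalization. Agr3, a disulfide isomerase of ciliated and secretory cells, differed by 0.76 ± 0.23 (SE; limma adjusted p = 0.081) and Bhlha15, a transcription factor of secretory cells, by 0.75 ± 0.72 (SE) on its brightest probe and -0.13 on another. Of 16 measured genes of 18 for granule release, 0 rose and 1 fell. That gene was Vamp2, a vesicle SNARE abundant in neurons as well as secretory cells, which read 41471, 58461 and 60507 in control, 48739, 40204 and 46523 in D1, and 27034, 31642 and 20120 in WK2. Its WK2 arrays lay below the other 6, with a difference of -1.03 ± 0.21 (SE; limma adjusted p = 0.0489), and leaving out any 1 of the 9 arrays ended the call, with adjusted p from 0.0502 to 0.148.

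Among 21 measured of 22 cytokine, growth factor and receptor genes known to induce mucins, 0 passed with limma in any comparison (7 at an unadjusted p under 0.05 in WK2 against control), 13 being above and 8 below control in WK2 with a median of 0.16. Erbb3, a neuregulin receptor, differed by -1.12 ± 0.29 (SE; limma adjusted p = 0.0642) and the related receptor Erbb4 by 1.02 ± 0.30 (SE; limma adjusted p = 0.0747). In D1 against control 0 genes of these lists passed, and in WK2 against D1 0 passed outside Muc15, beside 0% and 0.0931% of all features. Nothing is read from these counts, given the shares over all features above.

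Markers of the cells that make or border mucus were summed on each array. The summed intensity of 16 measured nasal and Bowman's gland markers of 18 listed ranged from 1845706 to 2121270 in control, from 1920148 to 2598224 in D1 and from 2269347 to 3105350 in WK2. Without the brightest gene, Bpifa1, the sum was 1398459 to 1691407 in control and 1698086 to 2488048 in WK2. That remainder still held the bright genes Obp1a and Obp2a, with means of 304077 and 365571 in control and 578893 and 608727 in WK2. The higher sum in WK2 thus rested in part on a few bright genes. Individual markers went both ways: 9 were above and 7 below control in WK2, 0 passed with limma (6 at an unadjusted p under 0.05), and the median was 0.44, or 0.07 with quantile normalization. Lyz1, a lysozyme, differed by 1.26 ± 0.32 (SE; limma adjusted p = 0.061) and Pigr, the polymeric immunoglobulin receptor, by 1.39 ± 0.67 (SE). Aqp5, a water channel of gland cells, read 50267, 68148 and 50925 in control and 38350, 49333 and 22467 in WK2. None of the 16 was at 0, and the part of gland content in the mucin values was not tested.

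The sum of 11 measured ciliated cell markers of 13 listed ranged from 384664 to 401481 in control, from 417082 to 444718 in D1 and from 459299 to 519282 in WK2. The groups did not overlap and were highest in WK2, but most of the sum was Tubb4b, a tubulin that is not limited to ciliated cells. Without Tubb4b the other 10 summed to 129646 to 147665 in control, 129521 to 142754 in D1 and 136850 to 162912 in WK2, and the groups overlapped. In WK2 against control, 0 of the 11 genes passed with limma (3 at an unadjusted p under 0.05) and their median WK2 difference was 0.07, below the 0.14 of all features. Of 7 bone and cartilage markers 0 rose and 2 fell in WK2 against control, Dmp1 by 1.53 and Col9a1 by 0.92 on the log2 scale (limma adjusted p = 0.0352 and 0.0408). The Dmp1 call held without control 2 and without WK2 1 and that of Col9a1 without WK2 1; leaving out any other array ended it. Sustentacular markers, 5 of 7 measured, were all above control in WK2 with a median of 0.47, which was -0.03 with quantile normalization. Mature neuron markers had a median of 0.18, or -0.07 with quantile normalization, and neutrophil markers one of 0.24, which was -0.40 without control 1, 1.12 without control 2, -0.13 without WK2 1 and 0.68 without WK2 3, so no direction can be given for it. Retnlg, a resistin-like protein of neutrophils, had the largest difference of that list, 1.48 ± 0.68 (SE; limma adjusted p = 0.177).

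**Figure D5:**
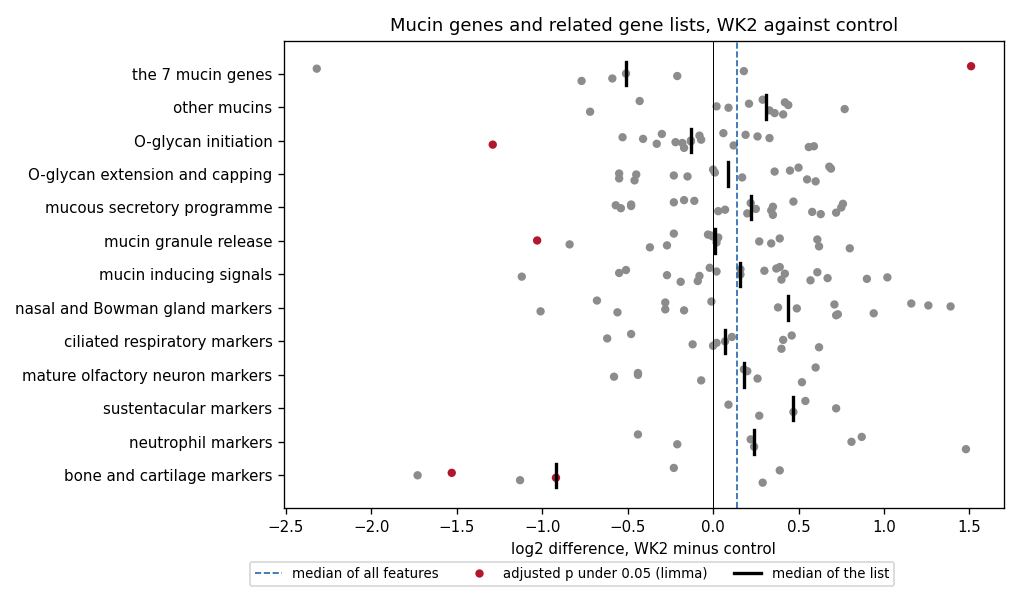
Log2 difference of WK2 from control for every measured gene of each list, 1 point per gene, with the list median as a black bar and the median of all features, 0.14, as a dashed line; red points passed an adjusted p of 0.05 (limma). The 7 mucin genes spread from -2.32 (Muc19) to 1.51 (Muc15), and red points are Muc15, Galnt17, Vamp2, Dmp1 and Col9a1.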

How the data were processed

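Total RNA of olfactory mucosa was extracted with Trizol, amplified and labelled with Cy5, per the labels' protocols. The authors deposited 1 table of linear intensity values for 26423 probes on 9 arrays; the scanner, background correction and normalization are not named in the sources used, and 8 to 18 values per array lie below 0. Array medians ran from 1202 to 1447, and no further normalization was applied. The table has no detection calls and no batches, and the number of arrays limits the precision.

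Probes were named through the platform annotation: 21876 had 1 symbol, 0 several and 4547 none, and 21825 had a gene ID in the RefSeq table of GRCm38.p6, which gave gene order. The brightest probe stood for a gene, leaving 23631 features. Values were analysed as log2(intensity + 50) in 1 model over all 9 arrays with limma 3.58.1 (lmFit and eBayes, R 4.3.3), with Benjamini-Hochberg adjustment within each of 3 comparisons. Intervals are 95% from that model. The members and the gene lists were chosen with earlier results of these data known. Named are all members and their probes, list genes past an adjusted p of 0.05 (at most 4 per list) or otherwise the 2 with the largest WK2 difference, the 3 genes most alike to each member (predicted genes and chemoreceptors left out) and Omp. Neighbouring genes, other markers and genes named beside these were chosen with their values in view. The 18 alternatives were quantile normalization, median centring, a filter on the dimmest 25% of features, averaging a gene's probes, pseudocounts of 16 and 500, trend and robust moderation, a fit of the 2 groups compared, the replicate number as a block, and leaving out each array.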

Additional observations from a re-analysis of the deposited data

Results flagged for a closer look

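Muc15 differed between the 2 treatment times, with WK2 above D1 by 1.90 on the log2 scale (limma, Benjamini-Hochberg adjusted p = 0.00813), its D1 arrays lying below and its WK2 arrays above all control arrays. The gene was chosen for this pattern, so the value is a description.

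Muc2 had all 3 D1 arrays above and all 3 WK2 arrays below the mean of the control arrays, and WK2 against D1 was -0.63 on the log2 scale. The D1 side rests on control 2: without it the control mean is 68082 in place of 62929, which puts D1 1 (67096) and D1 2 (66314) below it, and D1 against control becomes -0.01. The WK2 difference from D1 did not pass (limma, Benjamini-Hochberg adjusted p = 0.188), and the gene was chosen from these same values.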

How the results depend on the processing

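The count of features called in WK2 against control, 380, depended on the processing: it was 1267 with quantile normalization, 1514 with median centring, 576 without the dimmest 25% of features, 131 and 777 with pseudocounts of 16 and 500, 0 in a fit of the 2 groups alone (7028 had an unadjusted p under 0.05 in the fit of all arrays), 1 with the replicate number as a block, and 1 to 953 when 1 array was left out. For WK2 against D1, 22 became 76, 49 and 36 with quantile normalization, median centring and the dim filter, 13 with a pseudocount of 500, 2 in the 2-group fit, 8 with the block and 1 to 27 with an array left out. For D1 against control, 0 became 1 without control 1 (Muc19) or control 3, a range of 0 to 1. Of the mucin genes, 1 was called in WK2 against control, 0 in the 2-group fit (limma adjusted p of Muc15 0.0663) and with the block (0.0657), and 0 to 2 with an array left out; in WK2 against D1 that range was 0 to 1, as in D1 against control. Why the counts move was not tested. The labels name no pairing of samples by replicate number. The correlation of same-numbered arrays' deviations from their group means ran from -0.28 to 0.14. Differently numbered arrays were not compared, so these values cannot exclude a pairing.

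Of 378 recomputed mucin differences (21 under 18 alternatives), 351 kept their direction and their side of the threshold, 17 changed sign and 10 changed only their side of it. For D1 against control these were Muc1 at -0.03 without D1 2, Muc2 at -0.01, Muc5ac at 0.21 and Muc5b at 0.03 without control 2, and Muc5ac at 0.01 and Muc5b at 0.09 without D1 3. For WK2 against control, Muc4 was 0.13 without WK2 3 and Muc5ac 0.12 without control 2. For WK2 against D1, Muc19 was 0.13 with the mean of its probes, and Muc1 was 0.01 with quantile normalization, 0.20 without D1 2 and 0.12 without WK2 3. There Muc4 was 0.05 without D1 2 and 0.26 without WK2 3, and Muc5ac was 0.61, 0.08 and 0.09 without D1 2, WK2 2 and WK2 3. Over the left-out arrays, the D1 difference from control thus ran from -0.03 to 0.35 for Muc1, -0.01 to 0.25 for Muc2, -1.20 to 0.21 for Muc5ac and -0.33 to 0.09 for Muc5b, and the WK2 difference from control from -0.41 to 0.13 for Muc4 and -0.95 to 0.12 for Muc5ac. WK2 against D1 ran from -0.17 to 0.20 for Muc1, -0.28 to 0.26 for Muc4 and -0.60 to 0.61 for Muc5ac. The signs of Muc15 in all comparisons, and of Muc2 and Muc5b in both WK2 comparisons, held under all 18. With 1 array left out, list medians in WK2 against control ran from 0.15 to 0.38 for other mucins, 0.10 to 0.23 for the secretory programme, 0.05 to 0.19 for neuron markers, -0.18 to -0.01 for the initiating transferases, -0.40 to 1.12 for neutrophil markers and -1.01 to -0.17 for bone and cartilage markers. With no detection calls, dim probes such as that of Muc15 cannot be set against background.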
